A study of Mus musculus with 4 samples.

Results

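Guanylate-binding proteins (Gbp genes) and immunity-related GTPases (Irgm1, Irgm2 and Igtp, the last also called Irgm3) are 2 families of interferon-inducible GTPases, and 10 of their genes were examined in the stomach of mice that lack or carry Hdc, the gene of the enzyme that makes histamine. The 10 were a fixed list of names, looked up as array probe sets that the platform annotation assigns to 1 gene symbol. Of the 10, 9 were found among 22180 genes measured, each with 1 probe set. Gbp2 was not, because the probe set that carries its symbol is annotated to Gbp2b as well, and that shared probe set is described separately. The members were chosen on family names with the array values of these samples, and so the genotype differences, already known, and Gbp2b was to be set against its relatives. The members' differences are therefore a description and carry no test.

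The data were 4 Affymetrix arrays of total RNA from whole stomach tissue of FVB mice aged 1 year. Of these, 2 came from Hdc-/- mice and 2 from Hdc+/+ mice. The titles number them as biological replicates without saying whether each is another animal, so errors measure the spread between these samples, which may be technical. The labels name no treatment and do not say how the Hdc allele was made.

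Interferons switch on both families. Interferon gamma acts through its receptor, the JAK kinases and transcription factors that include IRF1, and the response to type I interferons involves STAT2 and IRF9. The guanylate-binding proteins are large GTPases that gather on the membranes around intracellular bacteria and parasites, where they help to break up the vacuole and to start inflammasome signalling. Irgm1, Irgm2 and Igtp are regulators of their own family, which keep the effector GTPases inactive on the cell's own membranes. Interferon-responsive promoters often hold an interferon-stimulated response element (ISRE), bound by factors of the IRF family, or a gamma-activated site (GAS), named for its response to interferon gamma.

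RefSeq promoter windows of assembly GRCm38.p6, each from 250 bases before to 50 bases after an annotated transcript start, were matched to 8 of the 10 listed genes. Gbp6 and Gbp9 had no entry. The letters GAAANNGAAA, an ISRE core, were searched on both strands, and they were present in a window of 8 of the 8 genes. These genes had 9 windows in all, and the additional window held no core match. Of all 27025 genes with a window, 3.99% held this core. The longer form GAAANNGAAACT was present in 5 of the 8 genes, against 0.303% of all genes, and Gbp2b, Irgm2 and Igtp were the 3 without it. The GAS letters TTCNNNGAA were present in Gbp5, Gbp7, Irgm2 and Igtp, 4 of the 8, against 9.55% of all genes. No GAS match overlapped an ISRE core match. A match says that these letters stand in the reference assembly, which is of another mouse strain than FVB, and says nothing of binding.

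The sequences below are shown because they place the ISRE core, in capitals, in Gbp2b and in the relatives it is compared with. Gbp2b and Igtp, the 2 members whose genotype groups did not overlap, are given over the whole 250 bases before the start, and the others over 50 or 60 bases around the match. Each is written 5′ to 3′ in the direction of transcription, so the core appears as its reverse complement in the Gbp genes.
Gbp2b (chr3:142594597-142594846, plus strand): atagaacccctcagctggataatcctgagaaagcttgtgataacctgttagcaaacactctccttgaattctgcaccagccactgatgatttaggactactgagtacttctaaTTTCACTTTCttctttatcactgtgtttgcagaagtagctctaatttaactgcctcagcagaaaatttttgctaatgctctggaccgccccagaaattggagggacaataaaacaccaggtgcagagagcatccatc
Gbp2 (chr3:142620584-142620643, plus strand): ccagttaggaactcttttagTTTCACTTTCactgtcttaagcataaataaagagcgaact
Gbp3 (chr3:142559979-142560038, plus strand): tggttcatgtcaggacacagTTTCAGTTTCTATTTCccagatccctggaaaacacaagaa
Gbp5 (chr3:142496749-142496808, plus strand): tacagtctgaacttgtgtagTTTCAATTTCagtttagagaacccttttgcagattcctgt
Gbp7 (chr3:142530263-142530322, plus strand): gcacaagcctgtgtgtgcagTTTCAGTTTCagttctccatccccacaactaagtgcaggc
Irgm1 (chr11:48871421-48871470, minus strand): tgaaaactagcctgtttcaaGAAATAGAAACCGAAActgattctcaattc
Irgm2 (chr11:58214893-58214952, plus strand): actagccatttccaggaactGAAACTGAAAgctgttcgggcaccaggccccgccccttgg
Igtp (chr11:58199306-58199555, plus strand): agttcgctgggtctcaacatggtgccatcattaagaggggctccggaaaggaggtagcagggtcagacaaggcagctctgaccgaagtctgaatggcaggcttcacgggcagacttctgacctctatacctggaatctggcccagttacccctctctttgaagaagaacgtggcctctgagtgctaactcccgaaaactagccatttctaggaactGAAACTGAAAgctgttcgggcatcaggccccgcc

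In Gbp2b the core began 137 bases before the start, and in Gbp5 165 bases before it. In the other 6 genes it began between 24 and 64 bases before the start, with overlapping matches in Gbp3 (45 and 39 bases) and in Irgm1 (30 and 24 bases). The windows of Irgm2 and Igtp, which lie next to each other on chromosome 11, shared 72.8% of their aligned positions, against 43.6% to 51.1% for the 27 other pairs of member windows. In both the core followed a GAS match, which began 75 bases before the start in Irgm2 and 45 bases before it in Igtp.

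**Figure D1:**
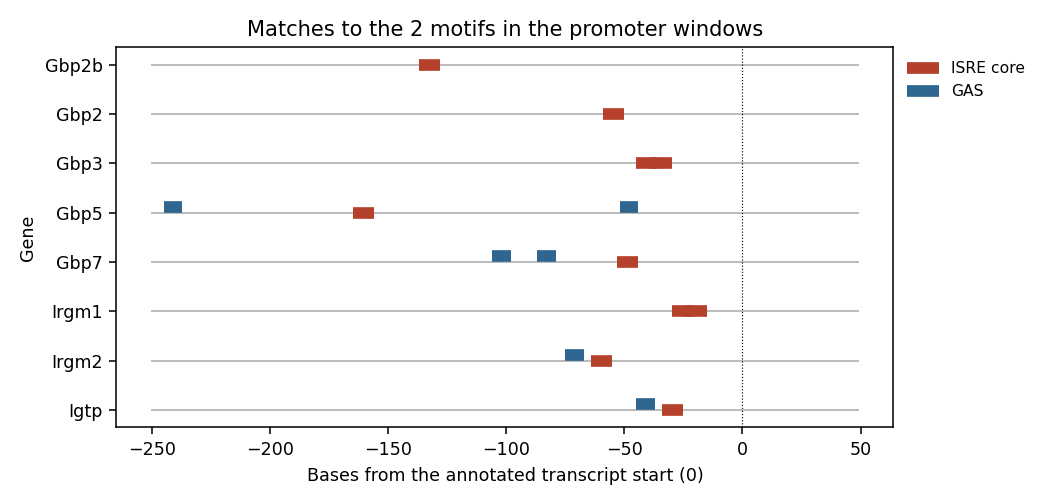
Matches to the ISRE core (red) and the GAS letters (blue) in the promoter windows of 8 genes, by distance in bases from the annotated transcript start. Each gene has a window with at least 1 ISRE core match, and of these core matches those of Gbp5 and Gbp2b lie farthest upstream, at 165 and 137 bases.

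The targeted gene came first as a check of the labels. Hdc had values of 3.77 and 4.06 on the Hdc-/- arrays and 3.99 and 3.82 on the Hdc+/+ arrays, as log2 probe set values. The groups overlapped. The sources used here do not say which part of the gene was deleted or where the probes lie, so the level of Hdc neither bears out nor opposes the labels, on which all directions rest. Gastric epithelium markers were listed under 15 names, of which Cblif and Gif are the same gene, and 14 were measured. Their summed linear level was 48130 and 49900 on the Hdc-/- arrays and 47760 and 43350 on the Hdc+/+ arrays. Such a sum rests on its brightest genes, and single markers were less even, with log2 differences from -0.82 to 1.89. Muc6 read 11.94 and 8.90 on the Hdc-/- arrays and 8.40 and 9.30 on the Hdc+/+ arrays. Gast read 5.18 and 6.87 on the Hdc-/- arrays and 6.996 and 6.70 on the Hdc+/+ arrays. Markers of organs next to the stomach stood apart by array. The summed level of 11 of 12 hepatocyte markers, all 11 lower on both Hdc-/- arrays, was 614 and 808 on the Hdc-/- arrays, against 5183 and 14900 on the Hdc+/+ arrays. That of 14 of 14 intestinal epithelium markers was 845 and 683 on the Hdc-/- arrays, against 1884 and 9778 on the Hdc+/+ arrays. Of 11 pancreatic acinar markers 9 were measured, and Clps, the colipase gene, carried most of their sum on every array but Hdc+/+ array 2. Without Clps the other 8 summed to 222 and 239 on the Hdc-/- arrays, against 209 and 5720 on the Hdc+/+ arrays. No probe set is listed at 0, the lowest value of the table being 0.384. Hdc+/+ array 2 was the highest for liver, intestine and pancreas, and the members' differences are also given without it.

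Gbp2b, which encodes the protein known as mouse GBP1, a large GTPase that gathers on parasite vacuoles in interferon-treated cells, read far higher in Hdc-/- stomachs. Its log2 probe set values were 6.77 and 6.33 on the Hdc-/- arrays, against 3.40 and 4.37 on the Hdc+/+ arrays. The lower Hdc-/- array lay 1.96 above the higher Hdc+/+ array on the log2 scale, while the arrays of a genotype lay 0.44 apart among Hdc-/- and 0.96 apart among Hdc+/+. The means were 6.55 ± 0.31 in Hdc-/- and 3.89 ± 0.68 in Hdc+/+ (SD, n = 2 each), a log2 difference of 2.66 (moderated SE 0.35) or 6.33-fold. Among all 22180 genes this was the 9th largest difference in the higher direction. Gbp2b stood at the 84.3rd and 80.7th percentile of genes on the Hdc-/- arrays and at the 22.7th and 45.2nd percentile on the Hdc+/+ arrays. Its difference was 2.18 without Hdc+/+ array 1, 3.14 without Hdc+/+ array 2, 2.44 without Hdc-/- array 1 and 2.88 without Hdc-/- array 2. In whole tissue, more cells that make a transcript and more transcript per cell cannot be told apart.

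limma's test over all genes, with Benjamini-Hochberg adjustment at 0.05, called 1 gene higher, or 0.00451% of the genes, and 0 genes lower, or 0%. The gene was H2-Ea, of the class II histocompatibility complex, and 0 of the 9 members were called. The count of 1 became 3 without Hdc+/+ array 1 and 0 without any other array, and the count lower became 158 without Hdc+/+ array 1. At an unadjusted p under 0.05, limma had 816 genes higher and 1081 lower. The genotype groups did not overlap for 2 of the 9 members, Gbp2b and Igtp, both higher in Hdc-/-, and 0 members were separated in the lower direction. Such a separation held for 21.5% of all genes in the higher and 17.6% in the lower direction, and nothing is read from the members' counts.

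**Figure D2:**
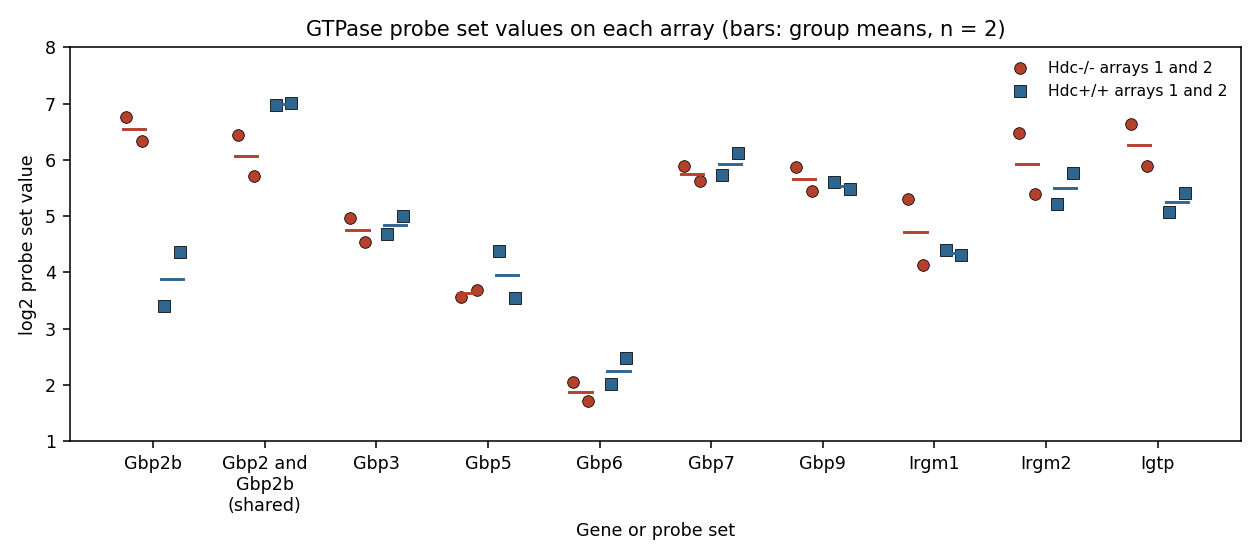
Log2 probe set value (vertical axis) of each member and of the probe set annotated to both Gbp2 and Gbp2b, on Hdc-/- arrays 1 and 2 (red circles) and Hdc+/+ arrays 1 and 2 (blue squares), with bars at the group means (n = 2). Gbp2b reads 6.77 and 6.33 on the Hdc-/- arrays and 3.40 and 4.37 on the Hdc+/+ arrays, whereas the shared probe set reads lower on both Hdc-/- arrays.

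Gbp2, which lies next to Gbp2b on chromosome 3, could be followed only through the shared probe set. That probe set, annotated to both Gbp2 and Gbp2b, read 6.44 and 5.71 on the Hdc-/- arrays, against 6.97 and 7.01 on the Hdc+/+ arrays. Both Hdc-/- values lay below both Hdc+/+ values, the opposite direction to the probe set of Gbp2b alone. The log2 difference was -0.91 (moderated SE 0.29, n = 2 per genotype), or 0.53-fold. It was -0.55 without Hdc-/- array 2 and -1.28 without Hdc-/- array 1. GBP2, like GBP1, is a vacuole-targeting GTPase, but the signal cannot be assigned to either gene.

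For the other guanylate-binding proteins of chromosome 3, the values of the genotypes overlapped. Gbp3, whose product is recruited to parasite vacuoles in interferon-treated mouse cells, read 4.97 and 4.55 on the Hdc-/- arrays and 4.68 and 5.002 on the Hdc+/+ arrays. Gbp7, whose product has been tied to host defence against intracellular bacteria, read 5.89 and 5.62 on the Hdc-/- arrays and 5.74 and 6.13 on the Hdc+/+ arrays. The log2 differences were -0.08 (SE 0.22) for Gbp3 and -0.18 (SE 0.21) for Gbp7. Both had the opposite sign without Hdc+/+ array 2, at 0.081 for Gbp3 and 0.018 for Gbp7. Over the arrays left out they ran from -0.29 to 0.13 for Gbp3 and from -0.37 to 0.018 for Gbp7. Gbp5, which has been linked to inflammasome assembly in macrophages, read 3.57 and 3.69 on the Hdc-/- arrays and 4.38 and 3.54 on the Hdc+/+ arrays. Its difference of -0.33 (SE 0.30) came with a single high array, Hdc+/+ array 1, and was 0.086 without it and -0.75 without Hdc+/+ array 2.

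The members on chromosome 5 were Gbp6 and Gbp9, whose products also reach parasite vacuoles in mouse cells. Gbp9 read 5.88 and 5.45 on the Hdc-/- arrays and 5.60 and 5.48 on the Hdc+/+ arrays, with a log2 difference of 0.12 (SE 0.21) and overlapping groups. That difference was 0.060 without Hdc+/+ array 2, -0.097 without Hdc-/- array 1 and 0.34 without Hdc-/- array 2. Gbp6 was dim on every array, at 2.05 and 1.71 on the Hdc-/- arrays and 2.01 and 2.47 on the Hdc+/+ arrays, between the 3.3rd and the 10.9th percentile of genes. Its difference of -0.36 (SE 0.23) lies in a range where the array may hold little signal, and no background values were used here to set a limit. It was -0.13 without Hdc+/+ array 2, -0.59 without Hdc+/+ array 1 and -0.19 without Hdc-/- array 2. Over the 5 guanylate-binding proteins other than Gbp2b, the median log2 difference was -0.18, against 0.02 over all genes, and the values ran from -0.36 to 0.12.

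The 3 immunity-related GTPases read highest on Hdc-/- array 1. Igtp, a regulator that sits on the endoplasmic reticulum and lipid droplets, read 6.64 and 5.89 on the Hdc-/- arrays, against 5.08 and 5.41 on the Hdc+/+ arrays. Its groups did not overlap, and its log2 difference was 1.02 (SE 0.29, n = 2 per genotype) or 2.03-fold, being 0.64 without Hdc-/- array 1, 1.40 without Hdc-/- array 2 and 1.19 without Hdc+/+ array 2. Irgm2, a Golgi-associated regulator, read 6.48 and 5.39 on the Hdc-/- arrays and 5.22 and 5.77 on the Hdc+/+ arrays. Irgm1, which is needed in mice for resistance to mycobacteria, read 5.30 and 4.13 on the Hdc-/- arrays and 4.40 and 4.30 on the Hdc+/+ arrays. Here a single array was high, since Hdc-/- array 2 lay inside the Hdc+/+ range for Irgm2 and below it for Irgm1. The log2 differences of 0.44 (SE 0.40) for Irgm2 and 0.36 (SE 0.38) for Irgm1 were -0.10 and -0.23 without Hdc-/- array 1, and 0.98 and 0.95 without Hdc-/- array 2. Without Hdc+/+ array 2 they were 0.72 for Irgm2 and 0.31 for Irgm1, and Irgm2 was 0.16 without Hdc+/+ array 1.

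The gap between the Hdc-/- arrays was shared by most members. Hdc-/- array 1 read above array 2 for 8 of the 9 members, Gbp5 being the exception, whereas it did so for 46.9% of all genes. The gap was 1.17 for Irgm1, 1.09 for Irgm2 and 0.76 for Igtp on the log2 scale, and its median over the 5 guanylate-binding proteins other than Gbp2b was 0.33. For Gbp2b it was 0.44, small beside the gap between the genotypes.

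Gbp2b was set against its 8 found relatives array by array, after each gene was centred on its own mean over the 4 arrays, since levels of different probe sets cannot be compared. On this scale Gbp2b minus the median of its relatives was 1.33 and 1.35 on the Hdc-/- arrays, and -1.70 and -0.82 on the Hdc+/+ arrays. The relatives' median moved little, at 0.22 and -0.24 on the Hdc-/- arrays and -0.11 and -0.03 on the Hdc+/+ arrays. No relative lay above Gbp2b on an Hdc-/- array or below it on an Hdc+/+ array. The difference of Gbp2b minus the relatives' median difference was 2.64 on the log2 scale. It was 2.84 against the other 5 guanylate-binding proteins and 2.22 against the 3 immunity-related GTPases. With Hdc+/+ array 1 left out it was 2.06, and with Hdc+/+ array 2 left out it was 3.07.

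**Figure D3:**
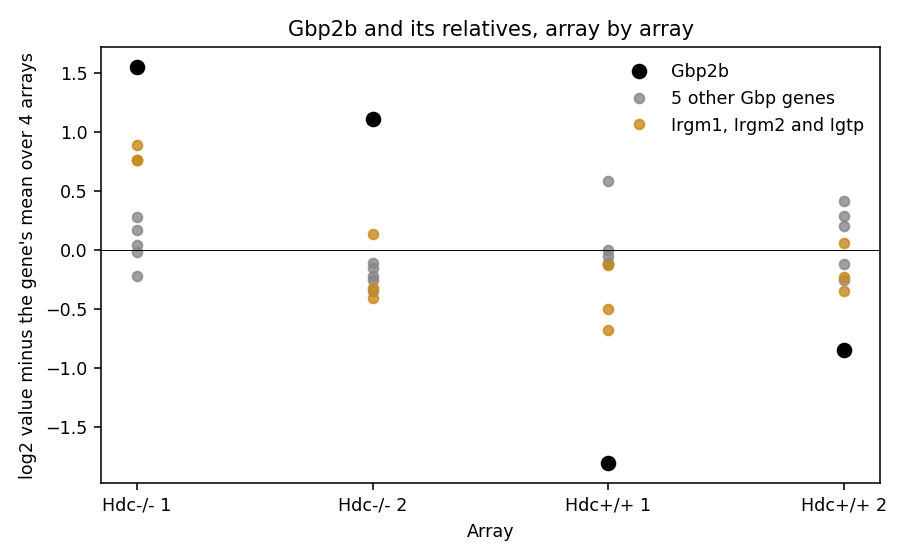
Log2 value of each member minus its mean over the 4 arrays (vertical axis), on each array, for Gbp2b (black), the 5 other guanylate-binding proteins (grey) and Irgm1, Irgm2 and Igtp (ochre). Gbp2b is the highest point on both Hdc-/- arrays and the lowest on both Hdc+/+ arrays, and the ochre points stand high on Hdc-/- array 1.

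Gbp2b also stood apart from the genes around it on chromosome 3. In the RefSeq gene order the 3 measured protein-coding genes on one side were Gbp3, Gbp7 and Gbp5, described above. On the other side were Kyat3, a kynurenine aminotransferase gene (-0.43, SE 0.22), the general transcription factor gene Gtf2b (0.04, SE 0.18) and the protein kinase gene Pkn2 (0.10, SE 0.19). Kyat3 read 5.35 and 5.07 on the Hdc-/- arrays, below its 5.44 and 5.85 on the Hdc+/+ arrays. Over 6 genes to each side the log2 differences ran from -0.59 to 0.27. Gbp2, which also lies next to Gbp2b, is missing from this order because it had no probe set of its own. The probe set that it shares with Gbp2b had a log2 difference of -0.91.

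**Figure D4:**
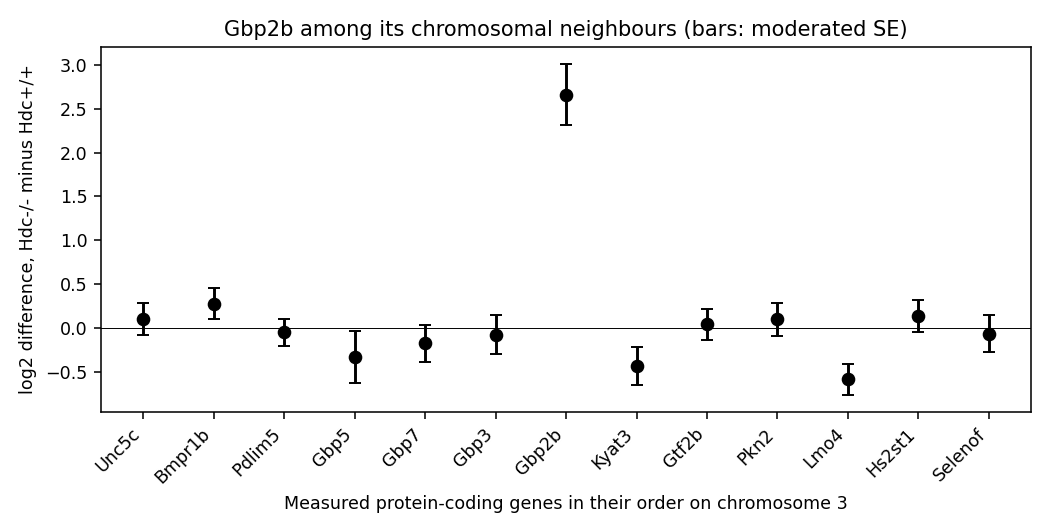
Log2 difference, Hdc-/- minus Hdc+/+ (vertical axis, bars at the moderated SE), of Gbp2b and of the 6 nearest measured protein-coding genes on each side, in their order on chromosome 3. Gbp2b is at 2.66 and these neighbours lie between -0.59 and 0.27. Gbp2, which had no probe set of its own, is not shown.

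The 5 genes whose 4 array values, centred on each gene's mean, lay nearest to those of Gbp2b by Euclidean distance were Cym (0.59), Cfi (0.83), Cdcp3 (0.88), E130008D07Rik (0.93) and Npy (0.99). Cym encodes the milk-clotting protease chymosin, Cfi complement factor I and Npy neuropeptide Y. Cym read 11.08 and 10.29 on the Hdc-/- arrays and 6.89 and 8.31 on the Hdc+/+ arrays, a log2 difference of 3.08 (SE 0.51). Cfi read 8.71 and 7.64 on the Hdc-/- arrays, against 5.60 and 6.79 on the Hdc+/+ arrays. Among the members, Igtp came nearest to Gbp2b, at rank 66 of all genes, followed by Irgm2 at rank 734 and Irgm1 at rank 2459. The other guanylate-binding proteins ranked from 6799 (Gbp9) to 20794 (Gbp5). The values were centred but not scaled, so these ranks largely restate the size of each gene's genotype difference.

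Further GTPases of interferon-inducible families that are not on the member list had a probe set with 1 symbol for 14 of 23 listed names. Probe sets annotated to several symbols, such as those with Ifi47, Tgtp1 or Gvin1, stand outside the 14. Their log2 differences ran from -1.30 (Gm4841 and BC023105, SE 0.23) to 0.31 (Tgtp2 and Tgtp1, SE 0.42). The probe set of Gm4841 alone, which is among the 14, differed by 0.01 (SE 0.17). limma called 0 of the 14 over all genes. At an unadjusted p under 0.05, 0 were higher and 3 were lower in Hdc-/-, against 3.68% and 4.87% of all genes, and the median log2 difference was -0.18. The 3 lower became 1 without Hdc-/- array 2, where 1 was higher, as 1 was without Hdc+/+ array 2. Iigp1, the gene of an effector GTPase that the Irgm proteins regulate, read 5.55 and 4.80 on the Hdc-/- arrays and 6.11 and 6.82 on the Hdc+/+ arrays (-1.30, SE 0.35, limma adjusted p = 0.443). Gbp11, annotated as a transcribed pseudogene, read 4.06 and 3.33 on the Hdc-/- arrays and 4.89 and 6.003 on the Hdc+/+ arrays (-1.75, SE 0.43, limma adjusted p = 0.396). F830016B08Rik was the third (-0.60, SE 0.20, limma adjusted p = 0.503). At the other end stood Gbp4, named after its values were seen, which read 4.40 and 2.72 on the Hdc-/- arrays and 2.46 and 2.26 on the Hdc+/+ arrays (1.20, SE 0.53, limma adjusted p = 0.602). The differences of the 14 thus ran from -1.75 to 1.20. Gbp4, like the Irgm genes, was highest on Hdc-/- array 1, and its difference was 0.36 without that array and 2.04 without Hdc-/- array 2.

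The genes of interferon gamma signalling differed by -0.48 to 0.36 on the log2 scale. Of 19 measured genes, limma called 0, and at an unadjusted p under 0.05 it had 0 higher and 1 lower, with a median log2 difference of 0.06. Of all genes, 3.68% were higher and 4.87% lower at this threshold, so the count of lower genes is near the background. The 1 lower became 0 without either Hdc+/+ array and 2 without either Hdc-/- array. Ifng, the interferon gamma gene itself, named after its values were seen, read 3.43 and 3.21 on the Hdc-/- arrays and 3.21 and 3.08 on the Hdc+/+ arrays. Irf1, which binds ISREs and was also named after its values were seen, read 6.41 and 5.84 on the Hdc-/- arrays and 5.74 and 6.11 on the Hdc+/+ arrays. The receptor chain gene Ifngr1 read 8.45 and 8.77 on the Hdc-/- arrays and 9.07 and 9.11 on the Hdc+/+ arrays (-0.48, SE 0.18, limma adjusted p = 0.566). Batf2 (-0.38, SE 0.18), the receptor kinase gene Jak2 (-0.37, SE 0.18) and the feedback inhibitor gene Socs1 (0.36, SE 0.21) had the next smallest p. Without Hdc-/- array 1, Ifngr1 was -0.32 and Socs1 was 0.17. Without Hdc-/- array 2, Jak2 was -0.21 and Socs1 was 0.55, and Socs1 was 0.21 without Hdc+/+ array 2.

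Other targets of interferon gamma, mostly of antigen processing and tryptophan use, numbered 21 measured genes with a median log2 difference of 0.20. limma called 0 over all genes, and an unadjusted p under 0.05 was reached by 3 higher and 0 lower genes, against 3.68% and 4.87% of all genes. Ido1, which encodes a tryptophan-degrading enzyme, read 5.97 and 5.53 on the Hdc-/- arrays, against 4.76 and 4.74 on the Hdc+/+ arrays (1.00, SE 0.20, limma adjusted p = 0.333). The other 2 were Ubd, a ubiquitin-like protein gene (0.52, SE 0.19), and Wars, a tryptophanyl-tRNA synthetase gene (0.49, SE 0.19). Apol9b was next (-0.63, SE 0.27). Without Hdc-/- array 1 the differences were 0.34 for Ubd, 0.30 for Wars and -0.29 for Apol9b, which was -0.97 without Hdc-/- array 2. The 3 higher became 1 without Hdc+/+ array 1 or Hdc-/- array 1.

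Antiviral genes induced by interferon, many of them targets of type I interferon, had the highest median difference of the lists examined. Of 23 antiviral interferon-induced genes, an unadjusted p under 0.05 was reached by 9 in the higher direction (3.68% of all genes) and 0 in the lower (4.87% of all genes), and limma called 0 after adjustment. Their median log2 difference was 0.44, against 0.12 over the 9 members. Ifit1 read 6.12 and 5.85 on the Hdc-/- arrays and 4.71 and 4.72 on the Hdc+/+ arrays (1.27, SE 0.18, limma adjusted p = 0.247). Oas2 (1.11, SE 0.18), the ubiquitin-like modifier gene Isg15 (1.02, SE 0.25) and Usp18 (0.62, SE 0.17), whose product removes that modifier, came next. Without Hdc+/+ array 1 the count of 9 was 5.

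In the type I signalling list of 13 genes, limma called 0, and an unadjusted p under 0.05 was reached by 2 higher and 0 lower genes, against 3.68% and 4.87% of all genes. The median log2 difference was 0.14. Irf7 read 6.64 and 6.75 on the Hdc-/- arrays and 5.67 and 6.01 on the Hdc+/+ arrays (0.86, SE 0.19, limma adjusted p = 0.360). Stat2 read 6.86 and 6.71 on the Hdc-/- arrays and 5.73 and 6.20 on the Hdc+/+ arrays (0.82, SE 0.21, limma adjusted p = 0.433). Both encode transcription factors of the type I response. The adaptor gene Mavs (0.46, SE 0.19) and Irf9 (0.39, SE 0.20) had the next smallest p. Mavs was 0.28 without Hdc-/- array 2, and Irf9 was 0.22 without Hdc-/- array 1 and 0.25 without Hdc+/+ array 1. The 2 higher became 1 without Hdc+/+ array 1.

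Partners of the GTPases in vacuole targeting, autophagy and inflammasome signalling numbered 24 measured genes with a median log2 difference of -0.02. limma called 0, and an unadjusted p under 0.05 was reached by 0 higher and 2 lower genes. Of all genes, 3.68% were higher and 4.87% lower at this threshold. The lower pair were Pycard, the inflammasome adaptor gene, and Sqstm1, an autophagy receptor gene. Pycard read 5.72 and 6.20 on the Hdc-/- arrays and 6.53 and 6.69 on the Hdc+/+ arrays (-0.65, SE 0.22, limma adjusted p = 0.513). Sqstm1 differed by -0.42 (SE 0.16), Il1b by 0.38 (SE 0.16) and Rnf213 by 0.42 (SE 0.20). Pycard was -0.41 without Hdc-/- array 1, and Rnf213 was 0.26 without Hdc+/+ array 1. The 2 lower became 0 without Hdc+/+ array 2 or Hdc-/- array 1, and 1 without Hdc+/+ array 1 or Hdc-/- array 2.

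**Figure D5:**
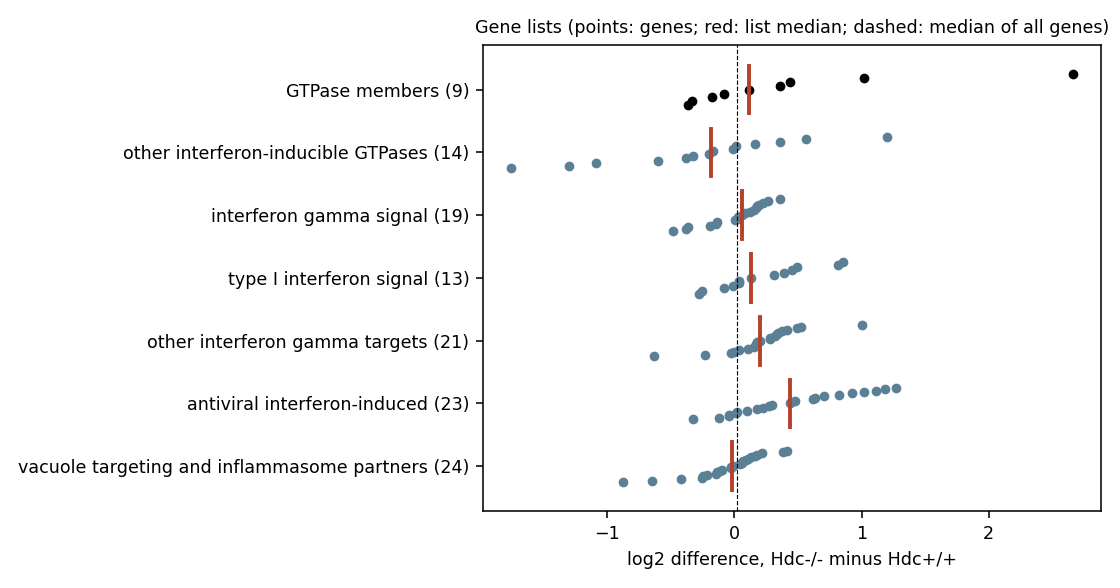
Log2 difference, Hdc-/- minus Hdc+/+ (horizontal axis), of each measured gene (points) in the member list and 6 related lists, with the number of genes in brackets, the list median in red and the median of all genes (0.02) dashed. Gbp2b is the isolated point at 2.66, and the antiviral genes have the highest list median, 0.44.

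Markers of other cell types in the tissue also varied between the arrays. The summed linear level of 15 macrophage markers was 1077 and 1182 on the Hdc-/- arrays and 760 and 948 on the Hdc+/+ arrays. For 15 T and NK cell markers it was 374 and 368 on the Hdc-/- arrays and 266 and 304 on the Hdc+/+ arrays. Of the listed markers, 15 of 16 were measured in each of these 2 lists, and single markers did not all follow the sums. The genotype groups did not overlap for 7 macrophage markers in the higher and 2 in the lower direction. For T and NK cell markers these counts were 8 and 1, against 21.5% and 17.6% of all genes. Endothelial markers were 439 and 398 on the Hdc-/- arrays and 450 and 517 on the Hdc+/+ arrays over 14 genes. Over 11 of 12 squamous epithelium markers the sum was 1210 and 1344 on the Hdc-/- arrays and 2580 and 2247 on the Hdc+/+ arrays. Over 9 of 10 adipocyte markers it was 778 and 1044 on the Hdc-/- arrays and 1730 and 2320 on the Hdc+/+ arrays. The part of these markers in the Gbp2b and Igtp differences was not tested.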

How the data were processed

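The authors deposited log2 probe set values. RMA, oligo and Affymetrix Power Tools are named in the submitters' processing notes, without versions. The summarisation level, filters and genome build stand in no source used here. Of 41345 probe sets, 23521 had 1 gene symbol, 1814 several and 16010 none. Probe sets with 1 symbol were kept, the one with the highest mean over the 4 arrays standing for a gene, which left 22180 genes. Nothing was renormalized and no dim gene was removed.

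Genotypes were compared with limma (version 3.58.1 in R 4.3.3; lmFit, eBayes, no covariate), with Benjamini-Hochberg adjustment over all genes. Differences are Hdc-/- minus Hdc+/+, and SE is the moderated standard error. There were 2 residual and 3.62 prior degrees of freedom. The fit was also run on simulated data. These were drawn with independent errors from the fit's own prior, so they cannot show whether the fit suits these arrays. An exact permutation test of 1 gene cannot go below p = 0.333 here, and the number of arrays limits precision.

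The members and lists were chosen with earlier results of these data known. The naming rule took all members, up to 4 genes per related list with the smallest p (of the other GTPases, those under 0.05 unadjusted), the 5 genes nearest Gbp2b and its 3 neighbours on each side. Promoter windows (RefSeq, GRCm38.p6), a single window per gene, were aligned pairwise with Biopython 1.88. Alternatives left out dim genes or single arrays, averaged probe sets, renormalized the values, changed the prior, blocked on replicate number, tested every probe set or used unadjusted p.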

Additional observations from a re-analysis of the deposited data

How the results depend on the processing

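Over the 12 alternatives run on the members' differences, 97 of 104 values kept their direction. Many of these could not change, so the count says little. Leaving out dim genes, averaging probe sets and blocking on replicate number leave a member's difference as it was. The 7 that changed direction each came from leaving out 1 array. Over the arrays left out, Gbp3 ran from -0.29 to 0.13 (0.081 without Hdc+/+ array 2), Gbp5 from -0.75 to 0.086 and Gbp7 from -0.37 to 0.018. Gbp9 ran from -0.097 to 0.34, Irgm1 from -0.23 to 0.95 and Irgm2 from -0.10 to 0.98, with the lowest value of each without Hdc-/- array 1. The median member difference of 0.12 was -0.23 without Hdc-/- array 1 and 0.34 without Hdc-/- array 2, so its sign rests on 1 array. The Gbp2b difference ran from 2.18 to 3.14, and its difference minus the relatives' median from 2.06 to 3.07, over the arrays left out. The number of genes limma called ran from 0 to 3 higher and from 0 to 158 lower over the arrays left out, against 1 higher and 0 lower with all arrays. The 158 came without Hdc+/+ array 1. A trended and robust prior gave 3 higher and 2 lower, and every probe set tested gave 0 higher. An unadjusted p under 0.05 with a log2 difference of at least 1 gave 107 higher and 372 lower. The replicate block gave 1 higher and 6 lower. The titles share replicate numbers, but same-numbered arrays deviated with a correlation of -0.119 over genes, and the block with crossed numbers, added after seeing the data, gave 0 higher and 0 lower. The causes were not tested. Gbp6 was lost with the dimmest 25% of genes left out, and Gbp5 and Irgm1 also with the dimmest 50%. With 2 arrays per genotype and no background values, differences of dim genes such as Gbp6 have no stated floor.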
